A study of Homo sapiens with 12 samples.

Results

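The response of mock-transfected K562 cells to tumour necrosis factor alpha (TNF) was read from 6 of the 12 RNA-seq libraries of the series, 3 labelled control and 3 labelled TNF. K562 is an established cell line from chronic myeloid leukaemia with erythroid features. All 6 libraries come from cells transfected with the non-targeting siRNA SiCt together with the non-targeting GapmeR GapCt, a GapmeR being a chimeric DNA oligonucleotide that makes RNase H cut the paired RNA, so the controls carry the transfection too. The TNF group was also treated for 6 hours with TNF at 20 ng/mL, which the control group did not get. The other 6 libraries, SG and TNFSG, were cells transfected with the siRNA Si623 and the GapmeR Gap01 against a long non-coding RNA, without and with the same TNF treatment. They entered the fit only to estimate the spread and serve at the end as a second TNF response. Cells grew in RPMI medium with 10% FCS, and 1 cell line at 1 dose and 1 time point limits what the groups can stand for.

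A locus was included when it carried a gene name and averaged at least 5 FPKM (fragments per kilobase per megafragment mapped, a level scaled for locus length and depth) over these 6 libraries. This kept 12368 of the 29237 named loci, out of 38272 loci in the table. The 5 loci just inside the limit averaged 5.0008 to 5.0046 FPKM and the 5 just outside it 4.9927 to 4.9953 FPKM. Changes below are differences of log2(FPKM + 1), TNF minus control, with the standard error (SE) of the limma fit, and they understate the change of loci at low levels. A locus is said to rise or fall only where limma's Benjamini-Hochberg adjusted p over the 12368 loci was under 0.05. A locus with a control mean under 5 FPKM could enter only through a higher TNF level, which was so for 542 tested loci and for 88 of those that rose, so shares among tested genes of a group are descriptions.

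TNF is an inflammatory cytokine that binds the receptors TNFRSF1A and TNFRSF1B. The occupied receptor assembles a complex of adaptors and ubiquitin ligases that activates the IkB kinase, which marks IkB proteins for destruction and frees NF-kB dimers to enter the nucleus. NF-kB switches on chemokines, adhesion molecules and survival genes, and also its own inhibitors, which limit the signal. In blood-forming cells TNF is known as a suppressor of erythroid growth.

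Of the 12368 loci 616 were called (4.98%), of which 398 rose (3.22% of those tested) and 218 fell (1.76%). In a bulk library, less RNA per cell and fewer cells that make an RNA cannot be told apart, and this holds for every value here. The rises were larger than the falls: the rises had a median change of 0.83, with 163 at 1 or more and 34 at 3 or more, whereas the falls had a median of -0.42 and only 2 of 1 or more in size. The median of all tested loci was -0.03. Loci that rose made up 1.14% of the summed FPKM of the tested loci in control and 2.38% in TNF, and loci that fell went from 0.917% to 0.629%. Among loci that GENCODE release 29 lists under the same name, 98.0% of 351 rises, 94.6% of 204 falls and 91.6% of the 9820 tested were protein-coding.

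**Figure D1:**
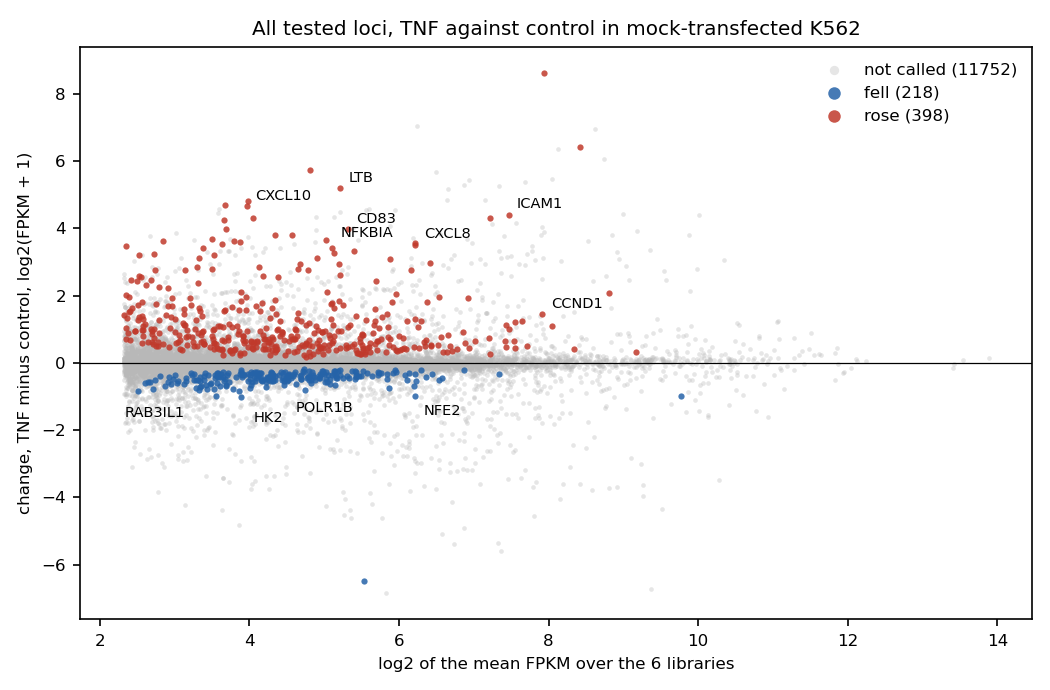
Change with TNF, log2(FPKM + 1), against the log2 mean FPKM over the 6 libraries, 1 point per tested locus, with called rises in red (398) and called falls in blue (218). The rises reach far from 0 at low and middle levels, the falls lie close to 0 apart from 1 locus at -6.47 that rests on 5 reads, and many loci that are not called lie far from 0 too.

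The spread between libraries set how firmly these counts can be read. FPKM sums of the 12 libraries ran from 925955 to 1083476, and relative depths, taken from whole-read steps in the values, ran from 0.863 to 1.12 among the 6 libraries. Correlations of log2 values over tested loci ran from 0.7819 to 0.8143 within a group and from 0.7352 to 0.8191 between control and TNF. Of the tested loci, 1427 (11.5%) averaged under 10 recovered reads, and with those left out 388 rises and 217 falls stood. Of the calls, 250 rises and 59 falls held in each of the 6 leave-one-out fits, each without 1 control or TNF library. The count of rises was 289 to 388 in those fits. The count of falls was 80 without control replicate 2, 93 without control replicate 3, 104 without TNF replicate 3 and 127 without TNF replicate 1. When the control and TNF libraries were fitted without the other 6, 185 loci rose and 37 fell. The K562 markers summed to 1023 to 2040 FPKM over 11 measured markers in control and 953 to 1948 FPKM in TNF. They were not all above 0 FPKM in each library. HBG2 was at 6.48, 0 and 0 FPKM in control and 0 in every TNF library, and HBG1 averaged 2.56 and 0.986 FPKM. How the authors' counting split reads between HBG1 and HBG2 is not given in the sources used here, so a 0 is not read as absence.

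Among 19 tested signalling components, from the receptors to the kinase complex, 3 were called, all higher, beside 4.98% of all loci. Limma gave 6 of the 19 an unadjusted p under 0.05. TNFRSF1A, the main TNF receptor, stood at 26.0, 16.9 and 16.9 FPKM in control and 25.3, 18.5 and 19.5 in TNF, and TNFRSF1B at 26.0, 23.8 and 24.6 against 21.9, 20.2 and 22.4. RIPK1, the kinase recruited to the receptor, averaged 17.3 and 18.8 FPKM, and IKBKG, the regulatory subunit of the IkB kinase, 8.92 and 9.14. None of these 4 passed the test, although TNFRSF1B was lower in every TNF library than in any control library. MAP3K8, a kinase that feeds the MAP kinase pathway, was at 15.9, 19.5 and 16.7 FPKM in control and 58.0, 59.5 and 60.4 in TNF. Its groups were far apart, and it rose by 1.72 ± 0.07 (limma adjusted p = 1.84e-06). TRAF3, an adaptor that restrains the alternative NF-kB pathway, rose from means of 6.83 to 13.8 FPKM, and IKBKB, a catalytic subunit of the IkB kinase, from 17.9 to 32.0. No component fell, and the median change of the 19 was 0.11. CHUK, the other catalytic subunit of the IkB kinase, was under the level limit, at means of 1.54 and 1.70 FPKM, and was not tested.

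All 5 NF-kB subunits rose, beside 3.22% of all loci, by amounts that differed widely. RELB and REL, 2 of them, entered only through their TNF level. RELB, which pairs with the p52 form of NFKB2, was at 2.04, 3.23 and 1.77 FPKM in control and 49.9, 45.2 and 40.8 in TNF. NFKB2 was at 6.46, 4.93 and 3.65 in control and 84.3, 52.3 and 54.2 in TNF, and NFKB1, the precursor of p50, at 11.6, 13.9 and 10.4 against 56.7, 54.5 and 50.3. In these 3 genes the lowest TNF library lay well above the highest control library, with changes of 3.81 ± 0.21, 3.42 ± 0.25 and 2.09 ± 0.13 (limma adjusted p of 8.2e-06, 4.98e-05 and 1.55e-05). REL moved less, from 4.21, 4.58 and 3.66 FPKM to 8.79, 9.27 and 8.48, a change of 0.94 ± 0.13. RELA, the transactivating partner in the classical dimer, was the subunit that moved least, from 25.4, 28.2 and 25.6 FPKM to 34.2, 31.8 and 35.9, which is 0.35 ± 0.07 (limma adjusted p = 0.0195). The order of the subunits by level therefore differed between the groups: RELA was the highest in control, whereas the means of NFKB2, NFKB1 and RELB all lay above it in TNF. The call of RELA was lost without either of replicates 1 and 3 of control or of TNF, and when the 6 libraries were fitted alone.

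The 4 tested IkB proteins also rose, of which 2, BCL3 and NFKBIZ, entered only through their TNF level. NFKBIA (IkB alpha), which holds NF-kB in the cytoplasm, was at 11.8, 11.4 and 9.44 FPKM in control and 143, 139 and 133 in TNF, and rose by 3.56 ± 0.10 (limma adjusted p = 6.79e-08). BCL3, a nuclear IkB protein that acts with p50 and p52, was at 2.06, 1.16 and 1.20 FPKM in control and 24.1, 21.6 and 19.0 in TNF, a change of 3.20 ± 0.16. NFKBIZ, another nuclear member, went from a mean of 4.81 to 15.5 FPKM. NFKBIB (IkB beta), the highest of the 4 in control, rose from 32.5 to 58.7 FPKM in mean, a change of 0.83 ± 0.08 that was the smallest of the 4. NFKBIE shares its locus with another gene name and was not used as a member. NFKBID was under the level limit and not tested, at means of 1.28 and 1.53 FPKM, and its groups overlapped.

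Of the 12 tested feedback inhibitors, 5 rose, beside 3.22% of all loci, and 7 did not pass. TNFAIP3 and BIRC3 entered only through their TNF level, and the median change of the other 10 was 0.16. TNFAIP3 (A20), a ubiquitin-editing enzyme that shuts the receptor complex down, was at 2.03, 1.98 and 1.48 FPKM in control and 42.1, 38.3 and 35.8 in TNF. It rose by 3.81 ± 0.15 (limma adjusted p = 1.04e-06). Its partner TNIP1 started from a higher level, at 28.8, 31.0 and 30.1 FPKM, and reached 92.8, 79.9 and 80.3. BIRC3, a ubiquitin ligase of the receptor complex, was at 0.157, 0.473 and 0.268 FPKM in control and 14.1, 8.77 and 10.6 in TNF, while its paralogue BIRC2 averaged 22.3 and 35.4 FPKM and did not pass (limma adjusted p = 0.0761). ZC3H12A, a nuclease that degrades inflammatory messengers, rose from 5.04 to 12.4 FPKM in mean. The other A20 partners stood at similar levels in both groups: TAX1BP1 averaged 63.6 and 62.7 FPKM and ITCH 20.3 and 19.5, and neither passed. RNF11, the fourth member of that A20 complex, was called at 0.44 ± 0.08 (limma adjusted p = 0.0183) and lost its call without replicate 1 or 2 of control or replicate 2 or 3 of TNF. CYLD, a deubiquitinase that opposes the same chains, was under the level limit, at 1.41, 1.43 and 1.16 FPKM in control and 4.73, 5.71 and 4.41 in TNF, and was not tested.

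MIR146A, the gene of a microRNA known to repress adaptors of inflammatory signalling, was among the largest rises. It was at 0.360, 0.569 and 0.159 FPKM in control, and at 28.1, 25.6 and 21.2 in TNF, with no overlap. The value is that of the transcript at the locus and not of the mature microRNA. The mature sequence is shown because its seed, in capitals, is the stretch by which it finds its targets, taken from RefSeq (GRCh38.p14, chr5:160485372-160485393, + strand).
hsa-miR-146a-5p: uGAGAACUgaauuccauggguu

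**Figure D2:**
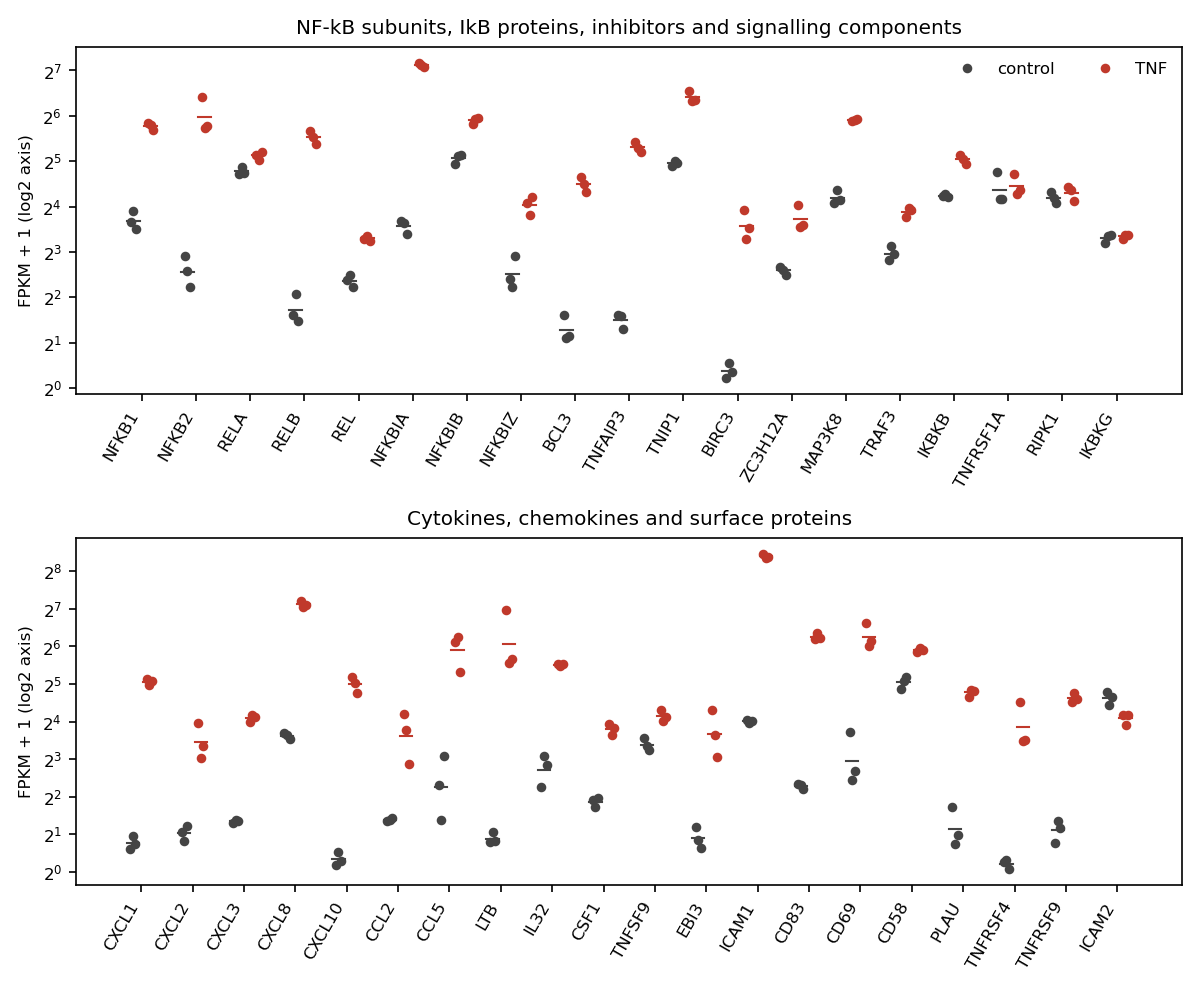
FPKM + 1 on a log2 axis in each control (grey) and TNF (red) library, with bars at the mean of the log2 values, for NF-kB pathway genes (top) and for cytokines, chemokines and surface proteins (bottom). The NF-kB subunits, IkB proteins and the secreted factors shown separate fully, whereas TNFRSF1A, RIPK1 and IKBKG overlap, and ICAM2 lies lower in TNF.

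Most of the secreted factors tested rose. Of 36 listed cytokines and chemokines, 16 were tested and 13 of these rose, beside 3.22% of all loci. The median change over the 16 was 2.59. Of the 16, 9 entered only through their TNF level, and the median of the other 7 was 0.43. LTB (lymphotoxin beta), a membrane-bound ligand of the TNF family, was at 0.726, 1.07 and 0.749 FPKM in control and 124, 46.2 and 49.6 in TNF. TNF replicate 1 lay apart from the other two, yet all 3 TNF libraries were far above control, and the change was 5.18 ± 0.45 (limma adjusted p = 0.000165). CXCL10, a chemokine for activated T cells, was at 0.140, 0.448 and 0.222 FPKM in control and 35.3, 31.7 and 26.3 in TNF, a change of 4.66 ± 0.22. CXCL8 (interleukin 8), which draws neutrophils, was already transcribed in control at 11.9, 11.4 and 10.5 FPKM and reached 147, 131 and 137 in TNF. Its libraries lay close together in each group, and its TNF mean of 138 FPKM was the highest of the 13 factors that rose. The 3 tested members that did not pass were VEGFA, TNFSF15 and CX3CL1, the last at means of 316 and 36.1 FPKM.

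The neutrophil chemokines CXCL1, CXCL2 and CXCL3 differed in how far they went. CXCL1 was at 0.524, 0.923 and 0.666 FPKM in control and 34.1, 30.6 and 32.8 in TNF, CXCL3 at 1.47, 1.58 and 1.54 against 14.9, 17.0 and 16.4, and CXCL2 at 1.08, 0.755 and 1.31 against 14.7, 7.09 and 9.10. Their changes were 4.30 ± 0.15, 2.76 ± 0.18 and 2.42 ± 0.25. In GENCODE release 29 (hg38), CXCL8, CXCL1, CXCL3 and CXCL2 lie in 1 stretch, chr4:73740506-74099293, in which 5 genes were tested and these 4 rose. This cluster was noted after the values were seen. The 3 genes are near-identical copies in part, and how the authors' counting split reads among them is not given in the sources used here.

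IL32, a cytokine of lymphoid and myeloid cells, rose from a mean of 5.76 to 44.6 FPKM, CSF1, the macrophage growth factor, from 2.65 to 13.0, and EBI3, a subunit of interleukins 27 and 35, from 0.889 to 12.5. CCL2, the monocyte chemokine, was at 1.56, 1.61 and 1.68 FPKM in control and 17.5, 12.8 and 6.31 in TNF. CCL5, another chemokine, was at 3.95, 1.59 and 7.53 in control and 68.2, 74.8 and 39.0 in TNF, and both groups were spread. The call of CCL5 (limma adjusted p = 0.0278) was lost without any 1 of 5 libraries, that is every control and TNF library but control replicate 3, and the calls of CCL2 and TNFSF9 were lost when the 6 libraries were fitted alone. TGFB1, which lost its call without control replicate 3 or TNF replicate 3, moved by 0.43 ± 0.08 from a level of 65.3 FPKM. Several further cytokines were under the limit of 5 FPKM and were not tested: TNF itself was at 0.104, 0 and 0 FPKM in control and 6.96, 5.47 and 4.22 in TNF, CXCL11 averaged 0.0596 and 8.89, IL1A 0.325 and 9.04, and IL6 1.67 and 6.99. Of the 12 cytokines under the limit, 8 had all TNF libraries above all control libraries, these 4 included, and in 4 the groups overlapped, as for IL18 at means of 3.03 and 3.25 and LIF at 0.846 and 0.276. Among the 12368 tested loci, the groups did not overlap, in either direction, at 2653.

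Promoters of 9 genes that rose are shown because they hold a letter match to the kappa B element that NF-kB dimers bind. Promoters came from RefSeq (GRCh38.p14, the build the files name as hg38), 250 bases before to 50 after the start, and a pair of 10-letter forms was searched on both strands. The first is GGG, 2 bases of any kind and TTTCC, the second GGG, 3 bases of any kind and TTCC, so every match of the first is also one of the second. Of the 18 genes looked up, risen or fallen, 16 were in the table, and ICAM1, CXCL8, CD83, NFKB2, BCL3, IRF1 and POLR1B held no match in these windows, which says only that these letters are not there. Each line gives 90 bases 5′ to 3′ on the gene's strand, with matches on either strand in capitals.
NFKBIA, chr14:35404781-35404870, - strand: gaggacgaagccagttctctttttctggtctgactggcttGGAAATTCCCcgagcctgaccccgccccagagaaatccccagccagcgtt
TNFAIP3, chr6:137867152-137867241, + strand: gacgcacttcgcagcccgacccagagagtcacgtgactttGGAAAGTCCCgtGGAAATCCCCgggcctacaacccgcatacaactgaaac
BIRC3, chr11:102317245-102317334, + strand: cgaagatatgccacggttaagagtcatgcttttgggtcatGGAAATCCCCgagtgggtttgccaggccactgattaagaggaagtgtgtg
LTB, chr6:31582462-31582551, - strand: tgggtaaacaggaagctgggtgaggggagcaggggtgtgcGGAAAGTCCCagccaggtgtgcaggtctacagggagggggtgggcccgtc
CXCL10, chr4:76023625-76023714, - strand: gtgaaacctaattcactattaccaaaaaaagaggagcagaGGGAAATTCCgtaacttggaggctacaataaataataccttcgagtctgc
TAP1, chr6:32853727-32853816, - strand: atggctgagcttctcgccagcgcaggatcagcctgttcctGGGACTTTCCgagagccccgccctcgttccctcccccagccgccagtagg
CXCL1, chr4:73869274-73869363, + strand: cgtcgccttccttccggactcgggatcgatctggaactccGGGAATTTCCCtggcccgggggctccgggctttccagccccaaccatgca
CXCL2, chr4:74099224-74099313, - strand: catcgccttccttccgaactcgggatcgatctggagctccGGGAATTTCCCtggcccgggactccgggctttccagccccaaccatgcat
CXCL3, chr4:74038719-74038808, - strand: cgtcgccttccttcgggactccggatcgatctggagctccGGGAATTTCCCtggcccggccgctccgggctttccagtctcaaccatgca

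TNFAIP3 holds 2 adjacent matches. The first 51 bases of the CXCL1, CXCL2 and CXCL3 windows, up to the end of the match, are the same at 47 or 48 positions in each pair, although the 3 genes changed by different amounts. The first form occurs in 1.91% and the second in 6.52% of the 35116 promoters of the same length in the table. A comparison of these shares between risen, fallen and all tested genes was void, because only 70.3% of the tested single-name symbols matched a promoter. A match is a description of the sequence, and binding was not measured.

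Among surface proteins, 8 of 20 tested members rose and 1 fell, beside 3.22% and 1.76% of all loci. CD83, PLAU, TNFRSF9 and TNFRSF4 entered only through their TNF level, and the median change of the other 16 was 0.21. ICAM1, the adhesion molecule by which leucocytes grip other cells, was at 15.6, 14.5 and 15.2 FPKM in control and 354, 328 and 336 in TNF, and had the lowest p of all 12368 loci (change 4.40 ± 0.09, limma adjusted p = 1.45e-08). Its relative ICAM2 went the other way, from 26.5, 20.9 and 24.4 FPKM to 17.2, 13.9 and 16.9, a change of -0.55 ± 0.11 (limma adjusted p = 0.0228). ICAM1 and ICAM2 thus stood in reverse order in the groups. The ICAM2 call was lost without replicate 1 or 3 of control or replicate 2 or 3 of TNF, and with the 6 libraries alone. CD83, a marker of activated antigen-presenting cells, was at 4.06, 3.93 and 3.59 FPKM in control and 73.0, 81.1 and 73.5 in TNF. CD69, an early activation marker, was at 12.3, 4.44 and 5.43 in control and 97.4, 63.2 and 70.0 in TNF, and replicate 1 was the highest of both groups. PLAU, the urokinase protease, rose from 1.31 to 26.4 FPKM in mean. The receptors TNFRSF9 (4-1BB) and TNFRSF4 (OX40), co-stimulators on lymphocytes, rose from 1.17 to 23.8 and from 0.161 to 14.2 FPKM. CD58, the ligand of CD2, rose from 32.1 to 59.0 FPKM, and ITGA5, an integrin chain, from 21.6 to 47.8, a call lost with the 6 libraries alone.

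Both sides of the cell death machinery moved. Of 13 tested death receptors and caspases 3 rose, and of 12 tested BCL2 family members 6 rose, none falling in either list. Beside them, 3.22% of all loci rose. In these lists 1 and 2 members entered only through their TNF level, and the medians of the other 12 and 10 were -0.01 and 0.38. CFLAR (c-FLIP), which blocks caspase 8 at the receptor, was at 58.0, 38.4 and 42.6 FPKM in control and 115, 111 and 103 in TNF, a change of 1.24 ± 0.19 (limma adjusted p = 0.00505). TNFRSF10B, a receptor for the death ligand TRAIL, rose from 8.86 to 19.8 FPKM in mean. CASP8 averaged 14.3 and 15.3 FPKM and FADD, the adaptor, 30.1 and 29.3, and neither passed. In the BCL2 family the pro-death members PMAIP1 (NOXA) and BBC3 (PUMA) had the largest changes among the 6 that rose: PMAIP1 was at 26.6, 26.1 and 23.1 FPKM in control and 56.6, 57.7 and 54.4 in TNF, and BBC3 at 7.13, 7.35 and 7.78 against 18.7, 14.4 and 17.6. BMF, also pro-death, averaged 4.98 and 11.7 FPKM and did not pass. The pro-survival BCL2L1 (BCL-xL) was at 75.0, 83.8 and 66.3 FPKM in control and 111, 108 and 109 in TNF, a change of 0.54 ± 0.11. BCL2L11 (BIM) moved by 0.36 ± 0.06. The calls of BCL2L1, BID, BAD and CASP10 were each lost in 5 or 6 of the 6 leave-one-out fits, and those of TNFRSF10B, BCL2L11, BCL2L1, BID, BAD and CASP10 with the 6 libraries alone.

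Genes of the interferon system moved in part. IRF1, a factor induced by both interferons and NF-kB, was at 6.05, 7.48 and 6.85 FPKM in control and 20.9, 22.9 and 22.8 in TNF (change 1.58 ± 0.13, limma adjusted p = 9.63e-05), and IRF2, which competes with it, rose from 4.96 to 12.4 FPKM in mean. STAT5A rose from 42.3 to 73.2 FPKM, whereas its close paralogue STAT5B averaged 30.8 and 25.7 and did not pass. Of the 47 listed interferon-stimulated effectors, 16 were tested and 5 rose, beside 3.22% of all loci. In this list 1 member entered only through its TNF level, and the median of the other 15 was 0.21. The 5 were DTX3L, UBE2L6, PARP14, EIF2AK2 and ADAR, with changes from 0.38 to 1.62. PARP14 had the largest of these, from 12.9, 8.09 and 6.67 FPKM to 37.0, 21.4 and 32.1. All 5 of these calls were lost with the 6 libraries alone, those of PARP14, EIF2AK2 and ADAR without control replicate 3 or any of 3 other libraries each, and that of UBE2L6 without control replicate 2 or 3. A further 20 effectors were under 5 FPKM, among them IFIT3 at 2.17, 1.10 and 1.60 FPKM in control and 8.20, 7.30 and 6.45 in TNF. Of these 20, 10 had all TNF libraries above all control libraries and 10 overlapped, among them HERC5 at means of 4.69 and 2.69 and IFI27 at 3.03 and 2.50. The groups did not overlap, in either direction, at 2653 of the 12368 tested loci.

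In class I antigen presentation, 4 of 11 tested genes rose, beside 3.22% of all loci. TAP1 and ERAP2 entered only through their TNF level, and the median change of the other 9 was 0.39. TAP1, which pumps peptides into the endoplasmic reticulum, was at 1.44, 0.791 and 0.769 FPKM in control and 13.8, 9.10 and 9.26 in TNF (change 2.55 ± 0.23, limma adjusted p = 0.000186). ERAP2, a peptide-trimming protease, rose from 2.25 to 8.35 FPKM in mean. B2M, the light chain of class I molecules, rose from 287, 296 and 253 FPKM to 382, 378 and 357, and PSME1, a proteasome activator, from 53.9 to 70.9 in mean. These last 2 calls were lost with the 6 libraries alone, and that of B2M under quantile normalization. Of the 22 listed genes, 6 lie only on loci that carry several gene names and were not used.

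Of 21 tested AP-1 and immediate early genes, 9 rose and none fell, beside 3.22% and 1.76% of all loci. In this list 1 member entered only through its TNF level, and the median of the other 20 was 0.40. IER3, an early response gene linked to survival, was at 32.4, 13.6 and 12.6 FPKM in control and 195, 120 and 139 in TNF, with replicate 1 the highest of both groups. JUNB was at 31.1, 29.5 and 29.5 in control and 86.7, 74.0 and 76.8 in TNF, a change of 1.37 ± 0.10 (limma adjusted p = 3.72e-05). JUN rose by 0.98 ± 0.13 from a mean of 13.6 FPKM and JUND by 0.45 ± 0.07 from 103. FOS, their best-known partner, stood under the limit and was not tested: its values were 3.94, 1.77 and 0.895 FPKM in control and 3.97, 1.87 and 0.867 in TNF, the same by replicate number and different between numbers. BTG2, an antiproliferative gene, rose from 25.1 to 77.8 FPKM and KLF6 from 13.1 to 37.2. CEBPD lost its call without control replicate 2 or 3, and IER5 lost its call without any 1 of control replicate 2, control replicate 3, TNF replicate 1 and TNF replicate 2. JUN, KLF10, JUND, CEBPD and IER5 were not called with the 6 libraries alone.

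Other brakes on signalling were split. Of 7 tested dual-specificity phosphatases, DUSP10, which acts on p38 and JNK, rose from 5.18, 5.04 and 3.91 FPKM to 11.3, 10.6 and 9.93, while DUSP7, which acts on ERK, fell from 11.6, 12.9 and 14.1 to 7.72, 7.63 and 7.47. Their changes were 1.03 ± 0.14 and -0.68 ± 0.09 (limma adjusted p of 0.00215 and 0.00201). This 1 rise and 1 fall among 7 stand beside 4.98% of all loci called, and DUSP10 entered only through its TNF level. SOCS1, an inhibitor of JAK kinases, rose from 21.5 to 41.2 FPKM in mean, and the survival kinases PIM2 and PIM3 from 42.5 to 106 and from 21.6 to 32.4. PIM1, the third kinase of that family, averaged 123 and 134 FPKM and did not pass, and PIM3 was not called with the 6 libraries alone.

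Among 31 tested G1/S and replication genes 3 were called, all higher, and among 30 G2/M and mitosis genes 0, beside 4.98% of all loci. The 3 included the D cyclins CCND2 and CCND1, which carry growth signals into the cycle. CCND2 was at 14.7, 13.5 and 13.1 FPKM in control and 30.6, 38.4 and 38.4 in TNF (change 1.31 ± 0.09, limma adjusted p = 3.82e-05). CCND1 was higher throughout, at 139, 156 and 95.7 FPKM in control and 418, 360 and 284 in TNF, but its spread was wide, and its call (limma adjusted p = 0.0264) was lost without replicate 1 or 3 of control or replicate 1 or 2 of TNF. CCND3 averaged 77.0 and 63.0 FPKM and did not pass. RFC2, a subunit of the clamp loader, rose by 0.38 ± 0.05. No other of the 31 tested G1/S and replication genes was called, and their median change was -0.03. Of 30 tested G2/M and mitosis genes limma called 0, with 4 at an unadjusted p under 0.05 and a median change of -0.07. CCND1 and RFC2 were not called with the 6 libraries alone.

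Large rises outside these groups included genes of other functions. SLC2A6, a member of the glucose transporter family, was at 0.962, 0.762 and 0.610 FPKM in control and 28.4, 19.1 and 18.2 in TNF, while HK2, the hexokinase that commits glucose to glycolysis, fell from 15.8, 20.5 and 24.0 FPKM to 7.27, 10.2 and 10.9. Of the 22 tested genes of glucose transport and glycolysis no other was called, beside 4.98% of all loci called. The HK2 call (limma adjusted p = 0.0114) was lost without control replicate 2 and with the 6 libraries alone. RRAD, a small GTPase, was at 0.772, 0.882 and 0.190 FPKM in control and 31.1, 28.5 and 15.9 in TNF, and CLIP2, a microtubule linker, rose from 1.43 to 27.8 in mean. USP6 was at 7.95, 9.21 and 10.8 FPKM in control and 252, 559 and 56.0 in TNF, a spread so wide that its call (limma adjusted p = 0.0287) was lost in 5 of the 6 leave-one-out fits, all but that without TNF replicate 3, and with the 6 libraries alone.

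The gene name CYP3A5, of a drug-metabolising cytochrome P450, is carried by 6 tested loci. All 6 rose, by 2.31 to 3.08, and the highest of them was at 13.7, 17.3 and 22.3 FPKM in control and 96.5, 134 and 146 in TNF. CYP3A7 rose from 2.01 to 13.0 FPKM in mean, a call lost with the 6 libraries alone, and CYP3A43 gave 132, 35.4 and 105 FPKM in control and 0, 55.5 and 239 in TNF and did not pass. These genes are near-identical in sequence, so which of them the reads came from is uncertain.

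Of the 20 largest rises at a single locus, 3 rest on few reads. RP11-875O11.2 is listed at 0 in the control libraries, and its 918, 171 and 377 FPKM in TNF stand for 6, 1 and 2 recovered reads. PCBP3 had 0 reads in control and 14 over the 3 TNF libraries, and AC002310.7 had 0 and 15. No fold is given for these loci. Their calls held in the 6 leave-one-out fits, but in the second transfection AC002310.7 changed by -0.89 and RP11-875O11.2 by 1.79 without passing (limma adjusted p of 0.636 and 0.247). PCBP3 was called higher there too (limma adjusted p = 2.22e-06), with 0 reads in every SG library and 11, 13 and 8 in TNFSG.

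The falls were small, with NFE2 and RAB3IL1 among the largest. NFE2, the erythroid bZIP factor that switches on globin genes, was at 95.0, 101 and 101 FPKM in control and 43.3, 49.6 and 57.0 in TNF, a change of -0.98 ± 0.13 (limma adjusted p = 0.00254). The lowest control library was 95.0 and the highest TNF library 57.0, so the groups were well apart. RAB3IL1, an exchange factor for RAB3, fell from 13.9, 16.6 and 17.4 FPKM to 6.00, 7.82 and 8.91. HOXD13, a homeobox factor, fell from 7.57 to 3.85 FPKM in mean, FAM78A from 13.1 to 6.97 and GEMIN5, an RNA-binding subunit of the SMN complex, from 20.4 to 11.9. MARS2, the mitochondrial methionyl-tRNA synthetase, fell from 16.5, 17.9 and 18.5 FPKM to 9.31, 9.48 and 10.9. The zinc exporter SLC30A1 fell from 14.8 to 8.23 FPKM and PDE4DIP, a centrosomal scaffold, from 73.6 to 43.4. Of the 20 largest falls, 11 held in all 6 leave-one-out fits. The largest in size, LINC01273, rests on 5 reads in control and 0 in TNF and was lost in all 6 such fits, as was LGR4. RPP25 and the pseudogene RNPS1P1 were lost in 5 of them, LYL1 in 4, SLC40A1, TFAP2B and SLC25A42 in 3, and HK2 in 1. With the 6 libraries alone, RAB3IL1, HOXD13, FAM78A, GEMIN5, SLC30A1 and PDE4DIP were not called.

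Of 32 tested genes of RNA polymerase I and ribosome assembly, 8 fell, beside 1.76% of all loci, none rose and 24 did not pass. The median change of the 32 was -0.27, beside -0.03 over all loci. POLR1B, the second largest subunit of RNA polymerase I, was at 23.8, 23.7 and 23.2 FPKM in control and 12.7, 13.8 and 15.0 in TNF, a change of -0.73 ± 0.07 (limma adjusted p = 0.000204). POLR1C, a subunit shared with RNA polymerase III, was at 38.7, 40.3 and 39.7 in control and 26.1, 29.7 and 28.9 in TNF. UBTF, the factor that opens ribosomal DNA for transcription, was at 31.1, 33.0 and 32.6 in control and 23.6, 24.4 and 22.7 in TNF. In these 3 genes the control libraries lay within a few FPKM of each other and above every TNF library. The assembly factors RRP1B, NOP2 and BYSL fell by 0.51, 0.43 and 0.45 on the log2 scale. UTP15 and LYAR fell too, with limma adjusted p of 0.0346 and 0.0374, and each lost its call without any of replicates 2 and 3 of control, replicates 1 and 3 of TNF and 1 further library. NCL (nucleolin) averaged 797 and 677 FPKM and FBL (fibrillarin) 503 and 497, and neither passed. Of these 8 calls, POLR1C, NOP2, UTP15 and LYAR were lost with the 6 libraries alone, and MYC, which drives many of these genes, averaged 168 and 185 FPKM and did not pass. MLX, a partner in the MAX network, was the 1 of its 9 tested members called, beside 4.98% of all loci. It was lower by limma and lost its call without any 1 library but TNF replicate 2.

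**Figure D3:**
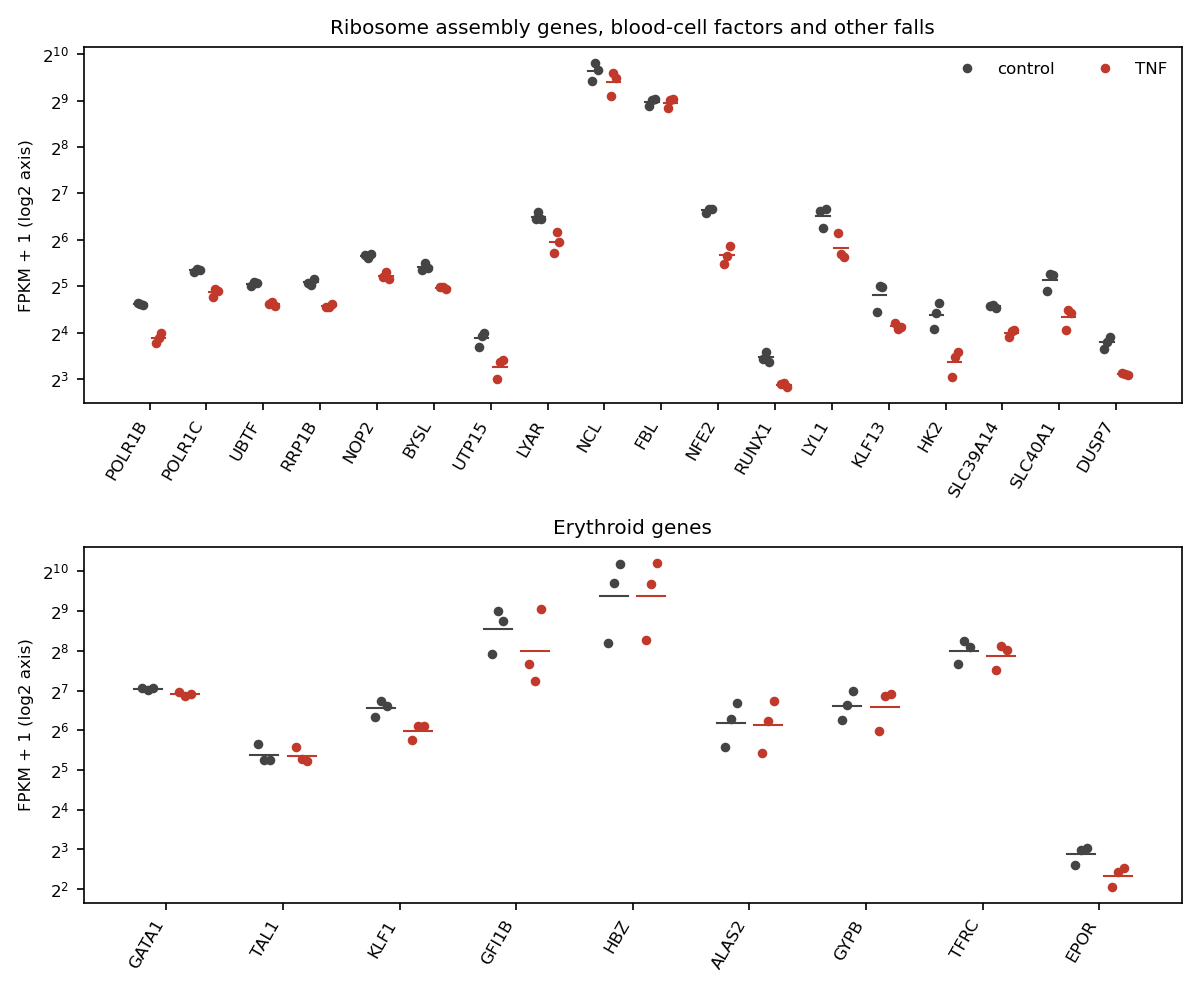
FPKM + 1 on a log2 axis in each control (grey) and TNF (red) library, from left to right replicates 1 to 3, with bars at the mean of the log2 values, for ribosome assembly genes and other falls (top) and erythroid genes (bottom). POLR1B, NFE2 and DUSP7 separate fully, whereas HBZ and ALAS2 are lowest in replicate 1 and highest in replicate 3 of both groups.

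Of 21 tested blood-cell transcription factors 4 fell and 1 rose, beside 1.76% and 3.22% of all loci. The other 16 did not pass, and the median change of the 21 was -0.34. RUNX1, a master factor of blood formation, fell from a mean of 10.1 FPKM to 6.32 with no overlap of the groups, a change of -0.59 ± 0.10 (limma adjusted p = 0.00759). LYL1 and KLF13 fell from 91.4 to 56.3 and from 27.5 to 16.6 FPKM in mean. MYB, which keeps progenitors dividing, rose from 85.9, 82.9 and 86.7 FPKM to 118, 125 and 119. KLF1, the erythroid Kruppel-like factor, was at 79.4, 106 and 96.5 FPKM in control and 53.5, 67.7 and 68.3 in TNF, with no overlap, but did not pass (limma adjusted p = 0.0681). GATA1, the central erythroid factor, averaged 131 and 119 FPKM and TAL1 41.3 and 40.4, and neither passed. LYL1 lost its call without replicate 1 or 3 of control or replicate 2 or 3 of TNF, KLF13 without any library but control replicate 1, and MYB without control replicate 2 or TNF replicate 2, and RUNX1, LYL1 and KLF13 were not called with the 6 libraries alone.

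The tested globins and red-cell membrane proteins, products of the erythroid programme, held no call. Only 3 of 11 listed globins were tested. Of the others, 4 were under the level limit, 1 lies only on a locus with several gene names and 3 were not in the table. Among the 4 under the limit, HBG1 was lower in every TNF library than in any control library, at means of 2.56 and 0.986 FPKM in control and TNF. In the other 3 the groups overlapped. HBZ, the embryonic zeta globin and the highest globin tested, was at 295, 842 and 1160 FPKM in control and 308, 819 and 1187 in TNF, so same-numbered libraries stood close while numbers differed by several-fold. ALAS2, the erythroid enzyme that starts haem synthesis, had the same order, at 46.5, 76.9 and 102 in control and 42.4, 74.3 and 105 in TNF. The share of this difference between replicate numbers in the tests, where it counts as spread, was not tested beyond the replicate block given among the dependences on processing. Of 3 globins and 16 red-cell membrane proteins limma called 0, with 0 and 2 at an unadjusted p under 0.05.

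Of 16 tested haem genes 2 were called and of 12 iron genes 2, beside 4.98% of all loci. ALAS1, the housekeeping form of the same enzyme, rose from 25.5, 22.6 and 22.6 FPKM to 36.0, 31.2 and 33.4, and SLC25A38, the mitochondrial glycine carrier that feeds haem synthesis, fell from 23.6 to 16.1 in mean. The iron importer SLC39A14 (ZIP14) fell from 22.8, 23.1 and 22.1 FPKM to 13.9, 15.3 and 15.7 (change -0.57 ± 0.06, limma adjusted p = 0.00068). SLC40A1 (ferroportin), the iron exporter, fell from 28.9, 37.6 and 36.6 to 15.7, 21.4 and 20.6. No other iron gene passed, and FTH1 and FTL, the chains of the iron store ferritin, were higher without passing, at 1003 against 1161 and 1285 against 1418 FPKM in mean. The SLC40A1 call was lost without control replicate 2, control replicate 3 or TNF replicate 1, and those of SLC40A1, ALAS1 and SLC25A38 with the 6 libraries alone.

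SOD2, the mitochondrial superoxide dismutase and a textbook TNF target, did not pass here. It was at 74.8, 109 and 86.6 FPKM in control and 78.0, 99.4 and 100 in TNF, a difference of 0.05 ± 0.15, and the groups overlapped. Of 15 tested antioxidant genes, GPX4, which repairs oxidised lipids, rose from 162, 153 and 158 FPKM to 211, 219 and 220. CAT (catalase) was called lower at -0.28 ± 0.06 (limma adjusted p = 0.0422) and was lost in all 6 leave-one-out fits and with the 6 libraries alone. This 1 rise and 1 fall among the 15 stand beside 4.98% of all loci called.

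Of 22 tested stress response genes 3 were called and of 15 p53 targets 3, beside 4.98% of all loci. In the integrated stress response and tRNA synthetases, 3 of 22 tested genes rose: SESN2 from 18.6 to 40.7 FPKM in mean, DDIT4, an inhibitor of mTOR signalling, from 140, 90.6 and 95.6 to 279, 172 and 261, and PPP1R15A (GADD34), which reverses the block on translation, from 27.3 to 39.9. None of these was called with the 6 libraries alone, and DDIT4 was lost without replicate 2 or 3 of control or replicate 1 or 3 of TNF. Of 15 tested p53 targets, GADD45A rose from 92.0, 87.7 and 99.6 FPKM to 138, 139 and 148, PLK3 rose from 4.31 to 8.74 in mean and AEN fell from 30.3 to 21.5, while CDKN1A averaged 5.68 and 13.4 and MDM2 19.3 and 18.3 without passing. PLK3 lost its call without replicate 2 or 3 of control or replicate 1 or 3 of TNF, and AEN without control replicate 2 or 3. Limma called 0 of 17 genes of cholesterol synthesis, 0 of 15 endoplasmic reticulum chaperones, 0 of 11 heat shock proteins and 0 of 12 reference genes, with 1, 2, 3 and 1 at an unadjusted p under 0.05.

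**Figure D4:**
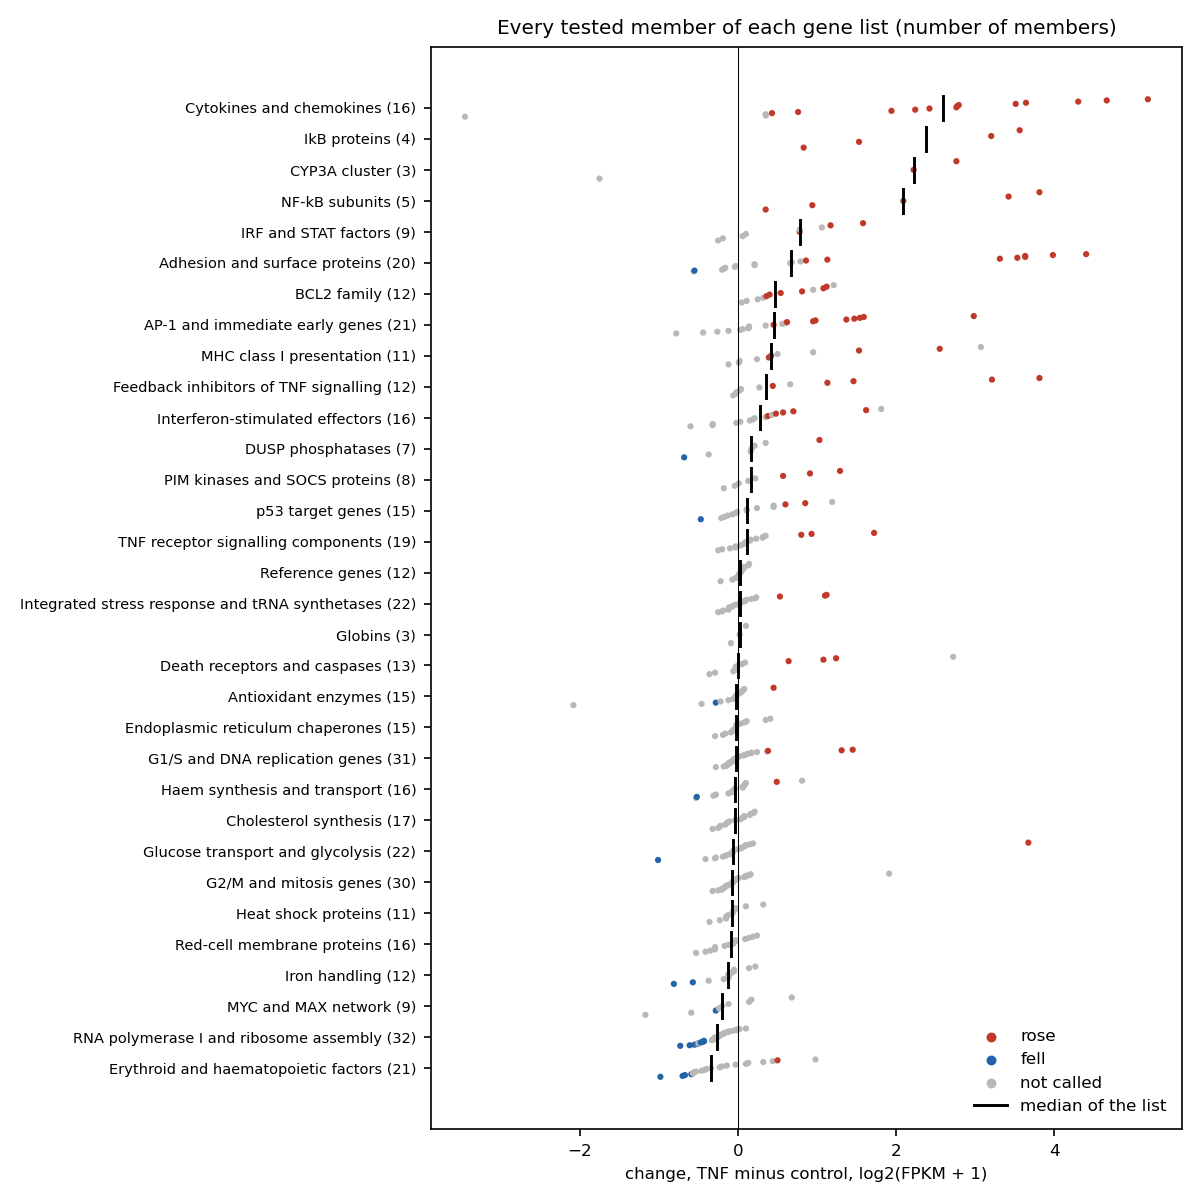
Change with TNF of every tested member of each gene list, log2(FPKM + 1), TNF minus control, with the number of members in brackets, called members in colour and the list median as a black bar. Cytokines, IkB proteins, the CYP3A cluster and NF-kB subunits have medians of 2.59, 2.37, 2.22 and 2.09, and of the lists drawn, which leave out markers of other cells, ribosome assembly genes and blood-cell factors have the lowest, -0.27 and -0.34, while single members that are not called can lie far out because their libraries disagree.

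Markers of other blood and tissue cells were checked as lists. Epithelial markers summed to 195 to 240 FPKM in control and 167 to 209 in TNF over 4 measured genes, and T cell markers to 13.9 to 43.4 and 16.1 to 54.1 over 3. Fibroblast markers summed to 23.9 to 56.3 FPKM in control and 55.1 to 1178 in TNF over 3 genes, where 1 value of 1098 made up most of the highest sum. None of these marker loci was called, and their part in the results was not tested.

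The same TNF treatment in cells transfected against the long non-coding RNA gave a second response from libraries that share none with the first, within 1 fit. Of the 398 rises, 390 were also higher in TNFSG than in SG and 307 were called there with the same sign, and of the 218 falls 216 were lower and 103 called. Over all 12368 tested loci, 8788 had the same sign in both pairs and 530 were called in the second pair with the same sign. The median changes were 0.73 for these rises and -0.34 for these falls in that pair, against 0.83 and -0.42 in the mock-transfected cells, where the loci were chosen and their sizes are therefore favoured. ICAM1 changed by 4.41, CXCL8 by 3.48, NFKBIA by 3.43 and LTB by 5.06 in that pair. NFE2 changed by -1.16 and POLR1B by -0.51. MIR146A changed by 2.59 there and by 4.25 in the mock-transfected cells, and the interaction of -1.67 did not pass the test. It was at 0, 0.0566 and 0.0630 FPKM in SG and 7.77, 4.51 and 4.03 in TNFSG. Every SG library lay below every control library, and every TNFSG library below every TNF library. Changes on this scale are understated at such low levels, so these values do not show a smaller fold in the second transfection. A test of the difference itself (the interaction) called 3 of 12368 loci (0.0243%), none of them a member of the gene lists, and 334 loci (2.70%) had an unadjusted p under 0.05. With loci of few reads left out it called 0 by limma, with 247 of 10941 at an unadjusted p under 0.05.

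**Figure D5:**
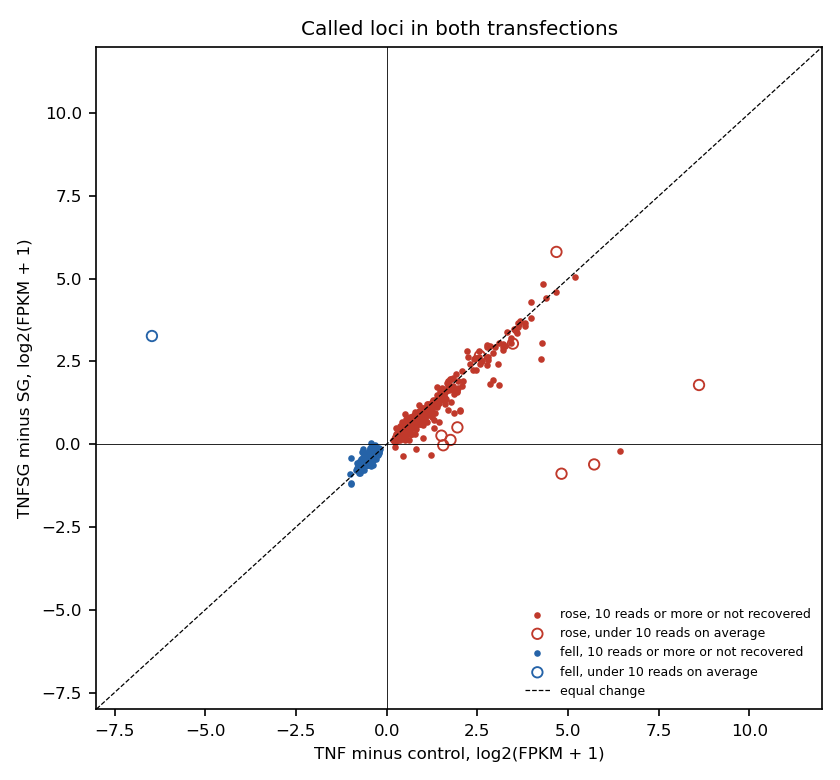
Change with TNF in the second transfection (TNFSG minus SG) against that in the mock-transfected cells (TNF minus control), log2(FPKM + 1), for the 616 called loci, with open circles for loci that average under 10 reads. Most loci lie near the dashed line of equal change, and those far from it are loci with few reads and ATL1, at 6.42 and -0.20.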

How the data were processed

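The authors deposited 1 table of FPKM values, with a column for each of the 12 libraries. RNA came from a Trizol extraction and was sequenced on an Illumina HiSeq in single reads of 50 bases, per the labels' protocols. Bowtie2 2.2.9, TopHat2 2.0.14 and Cufflinks were used with hg38, per the submitters' processing notes. No source used here gives the Cufflinks version, the annotation or the use of strand, so overlapping, antisense and near-identical genes cannot be separated. Total depth is unknown, and no count test was run. Whole reads were recovered (tolerance 0.03) for 56.5% of the 37506 loci with 3 or more values above 0, mostly those with few reads.

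Values were analysed as log2(FPKM + 1) with limma 3.58.1 (R 4.3.3, 1 mean per group over 12 libraries, eBayes with a trend, 8 residual degrees of freedom), two-sided, with Benjamini-Hochberg adjustment over the loci tested and a threshold of 0.05. The replicates are labelled biological replicates, and nothing states whether they came from separate cultures. The gene lists and the naming rule were chosen with earlier results of these data known. The rule names the 20 largest rises and falls among called, non-overlapping loci with 1 gene name on 1 locus, and of each list up to 10 members of lowest p plus those needed for its roles. A member on several loci is the one of highest mean FPKM. BIRC2, CASP8, FADD, CCND3, GATA1, TAL1, MYC, NCL, FBL, MDM2 and SOD2 were named for their roles, and CYLD, TNF, CXCL11, IL1A, IL6, IL18, LIF, IFIT3, HERC5, IFI27 and FOS, under the limit, after their values were seen. Mitochondrially encoded genes were not analysed here, and results for a few genes are not reported here.

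Alternatives were other filters, pseudocounts of 0.1 and 5, median-ratio scaling, quantile normalization, no trend, the 6 libraries alone, the replicate number as a block and each library left out. Removal of loci averaging under 10 reads and robust empirical Bayes were added after seeing the data. The model was tested on simulated data. Python 3.11.15, numpy 2.4.6, pandas 2.3.3 and matplotlib 3.10.9 were used.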

Additional observations from a re-analysis of the deposited data

Results flagged for a closer look

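At 3 loci the TNF response differed between the mock transfection and the transfection against the long non-coding RNA, by the interaction term of the limma fit with an adjusted p under 0.05. The pseudogene SDCBPP3 had an interaction of 10.74 on the log2(FPKM + 1) scale (limma adjusted p = 0.000749) because it is listed at 0 in the 3 SG libraries, and it averaged 6.00 recovered reads over the control and TNF libraries. The non-coding AC012322.1 had -10.36 (limma adjusted p = 0.0103) because it is listed at 0 in the 3 TNFSG libraries, and it averaged 3.33 reads. ZNF778, a zinc finger gene on chromosome 16 that is not among the loci averaging under 10 recovered reads, had -0.84 (limma adjusted p = 0.0395). It was at 13.5, 14.9 and 14.2 FPKM in control and 18.9, 20.3 and 20.7 in TNF, and at 18.6, 19.2 and 16.8 in SG and 14.3, 12.9 and 14.2 in TNFSG, so it rose by 0.46 in the first pair and fell by 0.37 on the log2 scale in the second. With few-read loci left out, limma called 0 loci, ZNF778 included.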

How the results depend on the processing

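Of the 129 named genes and loci with a call, 0 changed direction in the alternatives given here. Without a block, the calls lost ran from 0 of 129 under a pseudocount of 0.1, median-ratio scaling or robust empirical Bayes, and 0 of 108 at a mean of at least 10 FPKM, to 58 of 129 with the 6 libraries alone. The loci that rose numbered 398, with the 6 libraries alone 185, and 289 to 388 with a library left out. The loci that fell numbered 218, and 91 over all loci of at least 1 FPKM in 3 libraries (32866 tested), 109 with no filter on low values (28957 tested), 37 with the 6 libraries alone, and 80 to 188 with a library left out. Rises made up 64.6% of calls, and 81.0%, 78.5% and 83.3% in those 3 settings, while median-ratio scaling gave 69.6% and quantile normalization 62.9%. The cause of these shifts was not tested, apart from the larger number of loci and the smaller number of libraries that the settings imply. The interaction called 3 loci, and 7 with a pseudocount of 0.1, 1 with a pseudocount of 5, 0 with few-read loci left out, and 1 to 5 with a library left out.

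The labels give the libraries of each replicate number 1 letter, A, B or C, and the main fit did not take the numbers as pairs. Same-numbered control and TNF libraries correlated in their deviations from the group means by 0.149, 0.00489 and 0.0485. Differently numbered ones correlated by -0.117 to 0.0662. The order of the replicate numbers in HBZ, ALAS2 and FOS was nevertheless the same in control and TNF. With the replicate number as a replicate block, 662 loci rose and 578 fell over 12 libraries, and 104 rose and 10 fell over the 6 libraries alone (rises 53.4% and 91.2% of calls), and of the 129 named calls 1 and 88 were lost. Depth limits loci of few reads most: 1427 of those tested averaged under 10.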

Other observations

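Rises lay next to each other at further places in the genome, noted after the values were seen, as runs of 3 or more risen genes with gaps of at most 200000 bases in GENCODE release 29 (hg38). On chromosome 16, KREMEN2, PKMYT1, PAQR4 and IL32 rose within bases 2963944 to 3082192, where 7 genes were tested. On chromosome 22, APOL2, APOL1 and MYH9 were the 3 tested genes between 36226203 and 36388067. On chromosome X, PIM2, OTUD5, TFE3 and PRICKLE3 were 4 of 8 tested genes between 48913182 and 49186528. No test of this spacing was made.

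Several genes of large or steady change stand outside the gene lists and were chosen after their values were seen. NINJ1, a membrane protein of cell rupture, changed by 3.10, SDC4, a heparan sulphate proteoglycan, by 3.25 and IKBKE, a kinase related to the IkB kinases, by 2.80, all called higher. IFNGR2, a chain of the interferon gamma receptor, rose by 1.82 and SQSTM1, the autophagy receptor p62, by 1.22. Among the falls, ribosome assembly genes outside the list were MAK16 at -0.65 and RRS1 at -0.60, and MIR17HG, the host of a microRNA cluster, was at -0.38.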
